A study of Homo sapiens with 14 samples.

Results

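The 8 genes described here are chemokines and chemokine receptors, namely the ligand genes CCL22 (ENSG00000102962), CCL17 (ENSG00000102970), CX3CL1 (ENSG00000006210), CCL20 (ENSG00000115009) and CXCL10 (ENSG00000169245) and the receptor genes CCR7 (ENSG00000126353), CXCR4 (ENSG00000121966) and CXCR5 (ENSG00000160683). A region was assigned to a gene where the gene was listed as its closest gene or its closest transcription start site (TSS). By this rule 32 of the 14865 NF-κB binding regions in the table belonged to 7 of the 8 genes, and no region was assigned to CCL20.

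Chemokines are small secreted proteins that direct the migration of leukocytes through G protein-coupled receptors. CCL17 and CCL22 attract T cells that carry the receptor CCR4 and are well known products of Hodgkin and Reed-Sternberg cells. CX3CL1 is the ligand of CX3CR1, CXCL10 is an interferon-inducible ligand of CXCR3, and CCL20 is the ligand of CCR6. CCR7 and CXCR5 guide lymphocytes to the T cell zones and the follicles of lymphoid organs, and CXCR4 is the receptor of CXCL12. NF-κB binds DNA as dimers of related subunits, of which p50 and p52 are processed from larger precursors and lack a transactivation domain, whereas RelA and RelB carry one. RelA with p50 is the typical dimer of the canonical pathway and RelB with p52 that of the non-canonical pathway.

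Binding was measured by chromatin immunoprecipitation and sequencing (ChIP-seq) in L1236, an established cell line from Hodgkin lymphoma that was cultured in RPMI with fetal bovine serum and received no treatment. Each of p50 (antibody sc-1190), RelA (sc-372) and RelB (sc-226) was precipitated in 2 replicates with 1 antibody, while the 2 p52 replicates used different antibodies (05-361 and 06-413), and 6 input DNA libraries served as background. The table holds calls, fold enrichments over input and read counts from merged replicates of this single line, so for these no spread between replicates could be set against a difference between subunits, and there is no second condition. Values of the single replicates are given only as signal values, described further on. Over all regions the p52 reads summed to 1810792, the p50 reads to 1654137, the RelB reads to 470788 and the RelA reads to 315151. The 32 regions held between 0.305% (RelA) and 0.43% (p52) of these reads. Fold enrichment is the ratio of ChIP to input at the summit of a peak, and positions of regions are in hg18. The intervals given below for read ratios are exact Clopper-Pearson 95% intervals and cover counting error only.

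The sequences of the primer pairs that the study designed for ChIP-qPCR are shown for the 2 genes of this group that had one, because each amplicon lies inside a called region. The CCL22 pair lies in chr16:55943707-55944729 (hg18) and the CCR7 pair in chr17:35968904-35972385 (hg18), both described below.
CCL22 forward: gagtgccccctgtaagaaaac
CCL22 reverse: ggactgaaagtgagtgacagagaa
CCR7 forward: ccaacatctaggtcaaccac
CCR7 reverse: ggccttgagtcagatcatcc

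Promoter sequences of 5 of the 8 genes were taken from RefSeq (GRCh38.p14), with 7 windows in all because CXCR4 had 3 starts. The promoters of CCL17, CX3CL1 and CCR7 were not analysed here. The 250 bases before each start were searched on both strands for a κB-like motif (GGG, any 5 bases, CC), for the stricter κB consensus, whose matches are also matches to the κB-like motif, and for the AP-1 motif TGANTCA. The κB-like motif was found in 6 of 7 windows and in 54.4% of the 35116 windows of the whole table. The κB consensus was found in 3 of 7 windows, those of CXCL10, CCL22 and CCL20, beside 5.21% of all windows. The AP-1 motif was found in 0 of 7 windows and in 6.57% of all windows.

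The 4 windows below are shown because they set genes with a region over the TSS of the table next to genes without one. They are written 5′ to 3′ on the strand of the gene and end at the base before the start. CXCL10 and CXCR5 had a region over the TSS of the table, CCL22 had its regions further upstream, and CCL20 had none. The RefSeq start of a window need not be that TSS, so a printed window need not lie in the called region. Capitals mark the κB consensus in the first 3 sequences and the κB-like motif in CXCR5, which had no match to the consensus.
CXCL10 (chr4:76023498-76023747, minus strand): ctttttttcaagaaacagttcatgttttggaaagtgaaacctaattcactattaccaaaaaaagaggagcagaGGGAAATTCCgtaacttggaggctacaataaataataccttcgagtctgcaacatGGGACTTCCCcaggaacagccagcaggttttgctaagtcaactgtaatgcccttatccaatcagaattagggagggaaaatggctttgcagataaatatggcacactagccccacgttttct
CCL22 (chr16:57358533-57358782, plus strand): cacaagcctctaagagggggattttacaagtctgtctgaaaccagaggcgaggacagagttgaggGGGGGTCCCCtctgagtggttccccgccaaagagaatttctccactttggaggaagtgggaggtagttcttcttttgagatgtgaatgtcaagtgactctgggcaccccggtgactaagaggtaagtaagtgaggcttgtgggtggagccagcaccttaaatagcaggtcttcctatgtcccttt
CCL20 (chr2:227813592-227813841, plus strand): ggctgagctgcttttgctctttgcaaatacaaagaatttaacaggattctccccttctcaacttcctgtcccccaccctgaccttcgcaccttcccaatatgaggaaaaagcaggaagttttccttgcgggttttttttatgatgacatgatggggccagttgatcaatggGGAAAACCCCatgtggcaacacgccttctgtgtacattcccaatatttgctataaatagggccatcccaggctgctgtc
CXCR5 (chr11:118893142-118893391, plus strand): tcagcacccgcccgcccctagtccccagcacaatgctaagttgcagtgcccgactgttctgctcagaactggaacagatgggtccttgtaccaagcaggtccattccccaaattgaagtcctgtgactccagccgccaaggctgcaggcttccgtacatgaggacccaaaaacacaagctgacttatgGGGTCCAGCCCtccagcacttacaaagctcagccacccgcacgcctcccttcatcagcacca
CXCL10 held 2 matches to the consensus, from 177 to 168 and from 122 to 113 bases before the start. CCL22 held 1 match, from 185 to 176 bases before the start, and CCL20 held 1, from 79 to 70 bases before the start. The windows come from another genome build than the regions, so their positions were not joined.

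The ligand genes CCL22, CX3CL1 and CCL17 are neighbours on chromosome 16, and their 6 regions followed each other in the table within 63.8 kb (chr16:55940311-56004152, hg18) with no region of another gene between them. The nearest other regions lay 44.1 kb before and 62.9 kb after this stretch. p52 was called in all 6 regions, p50 in 5, RelB in 4 and RelA in none. The p50 enrichment was lowest at CCL22 and highest at CCL17, while CX3CL1 held both strong and weak regions.

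CCL22 had 2 regions, both upstream of the gene. The region 5490 bp upstream of the TSS (chr16:55943707-55944729) was called for p50, p52 and RelB. Its fold enrichment was 17.4 with p50, 11.7 with p52 and 11.3 with RelB, with 71 p50, 45 p52, 38 RelB and 11 RelA reads. RelB thus had nearly as many reads as p52 here, with a log2 ratio of RelB to p52 reads of -0.24 (interval -0.91 to 0.41), the highest of the 32 regions. The second region, 9093 bp upstream (chr16:55940311-55941126), was called for p50 (16.6-fold) and p52 (15.7-fold) only, with 60, 54, 25 and 7 reads for p50, p52, RelB and RelA. The enrichment of CCL22 was moderate, as the p50 values stood in the top 47.5% and 51.1% of all regions called for p50 and the p52 values in the top 78.9% and 56.5% of those called for p52.

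CX3CL1 had 3 regions, all downstream of its TSS. The region inside the gene at 4461 bp (chr16:55968376-55969637) had a fold enrichment of 35.6 with p50, 34.6 with p52 and 14.9 with RelB. The region 2991 bp beyond the gene (chr16:55979446-55980420) had 31.6 with p50, 37.8 with p52 and 13.6 with RelB. Both held 3 subunits at similar strength, with 266 and 237 p50 reads, 279 and 308 p52 reads, 87 and 53 RelB reads and 27 and 22 RelA reads. The region between them (chr16:55972874-55973567) was called for p52 only, with a fold enrichment of 10.7 and 52 p52 reads beside 44 p50 reads. The missing p50 call therefore does not stand for a lack of p50 reads, as the p50 density of 63.4 reads per kb was above the 5th percentile of all regions called for p50, 59.5 reads per kb.

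CCL17 had a single region of 2834 bp (chr16:56001319-56004152) that overlapped the gene, 5139 bp from the TSS. There, fold enrichment was 46.5 with p50, 41.7 with p52 and 12.4 with RelB, with 600 p50, 548 p52, 125 RelB and 71 RelA reads. The p50 value ranked 413th among the 10975 regions called for p50 and was the second highest p50 value of the 32 regions. RelA was not called, at a density of 25.1 reads per kb, beside a 5th percentile of 22.3 and a median of 38.4 reads per kb over all regions called for RelA.

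CXCL10 on chromosome 4 had 3 regions, each called for p50 and p52 and none for RelB or RelA. The region over the TSS (chr4:77163519-77164795) had a fold enrichment of 37.1 with p52 and 18.7 with p50. It held 400 p52, 145 p50, 61 RelB and 20 RelA reads, so that p52 reads exceeded p50 reads by 1.46 on the log2 scale (interval 1.19 to 1.75). The summits lay 133 bp (p52) and 120 bp (p50) upstream of the TSS in hg18, and the 2 κB matches in the sequence above lie 177 to 113 bases before the RefSeq start, which need not be the TSS of the table. Although RelB was not called there, its density of 47.8 reads per kb was above the median of 44.1 reads per kb over the 3984 regions called for RelB, and it was the only one of the 14 regions without a RelB call to exceed that median. The other regions lay 4835 bp upstream (chr4:77168509-77169137; 14.2-fold for p52, 10.8-fold for p50) and 5404 bp downstream of the TSS (chr4:77157566-77158270; 11.5-fold for p52, 20.04-fold for p50). In the downstream region the order was inverse, with 46 p52 and 84 p50 reads (log2 ratio -0.87, interval -1.42 to -0.33). Its 2 p50 signal values ranked far apart, in the top 29.1% and at 87.4% of the regions called for p50.

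CCL20, whose promoter holds a κB consensus match, had no region for which it was the closest gene or TSS. Regions listed with another gene as the closest were not searched for CCL20, since its position in hg18 is not in the table.

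**Figure D1:**
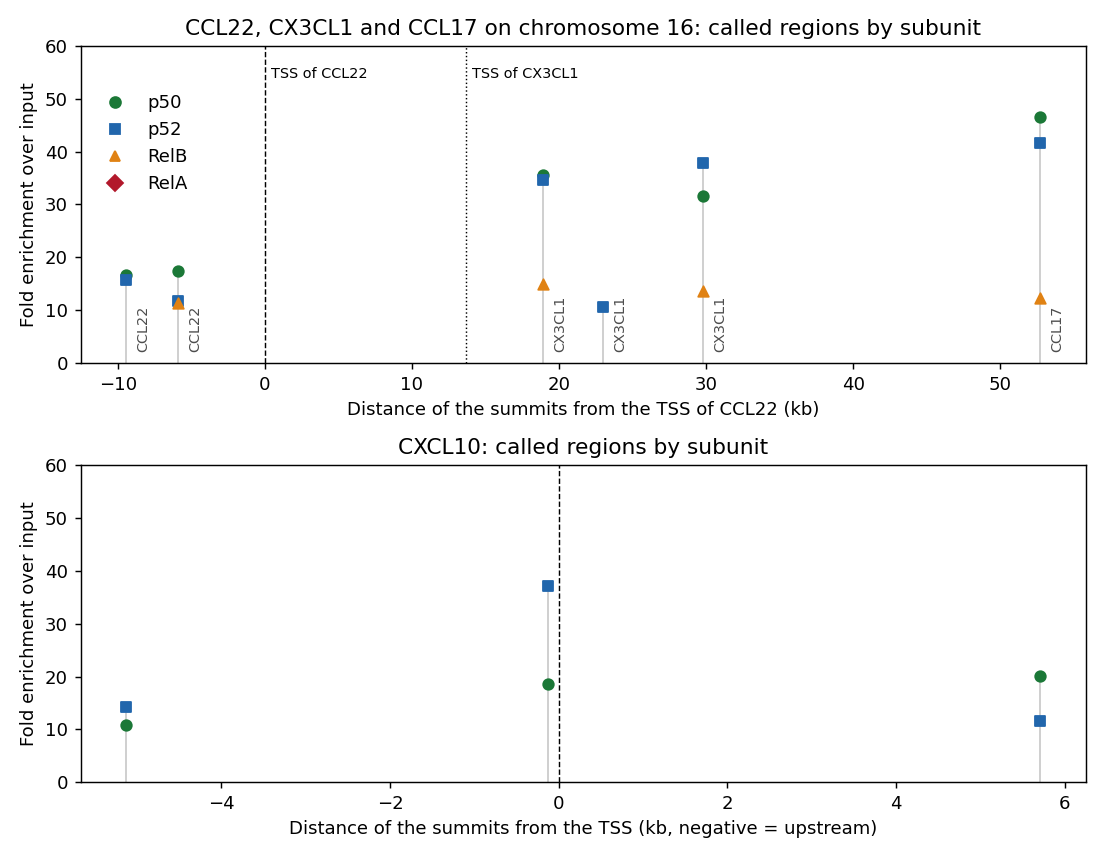
Fold enrichment over input (y axis) of each called region by subunit (marker and colour), placed by the distance of the summits from the TSS of CCL22 (upper plot, kb) or of CXCL10 (lower plot, kb), with dashed and dotted lines at TSSs. The p50 and p52 markers lie close together at CX3CL1 and CCL17, p52 stands above p50 at the CXCL10 TSS (37.1 against 18.7), and RelA has no marker.

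The receptor genes held 23 of the 32 regions and all 4 regions with a RelA call. CCR7 and CXCR4 had 10 regions each, a number reached by 1.2% of the 8450 genes with a region, whereas CXCR5 had 3. Of all genes with a region, 55.2% had 1. Regions assigned to the same gene share their neighbourhood and are not independent measurements.

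The 10 CCR7 regions on chromosome 17 spanned 72.8 kb, followed each other in the table, and reached from 34.1 kb downstream to 37.7 kb upstream of the TSS. All 10 were called for p52, 8 for RelB, 7 for p50 and 3 for all 4 subunits. For 3 of them, among these the strongest, another gene (ENSG00000073584) was listed as the closest gene and CCR7 only as the closest TSS, and for 1 the closest TSS was that of ENSG00000131746.

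The strongest region of all 8 genes lay 32.3 kb upstream of the CCR7 TSS (chr17:36007573-36009879). Its fold enrichment was 80.3 with p52, 53.3 with p50, 26.9 with RelB and 8.81 with RelA, with 757, 426, 160 and 72 reads. In p52 this was rank 49 of 10893 called regions, in p50 rank 192 of 10975, in RelB rank 141 of 3984 and in RelA rank 73 of 492. Each was the highest value of its subunit among the 32 regions. The summits of the 4 subunits lay within 95 bp of each other.

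The next region with all 4 subunits lay 11.8 kb upstream of the CCR7 TSS (chr17:35987070-35987996). Here the fold enrichment was 61.2 with p52, 33.0 with p50, 11.01 with RelB and 6.24 with RelA, with 466, 186, 52 and 28 reads. p52 thus ranked highest, at rank 238 of its called regions (top 2.18%), and p50 was in the top 13.1%. RelB was in the top 37.3% (rank 1486) and RelA near the middle of its called regions (rank 243, top 49.4%). The summits were within 43 bp.

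The third lay inside the gene, 2865 bp downstream of the TSS (chr17:35968904-35972385), and contains the amplicon of the CCR7 primers shown above. The enrichment reached 44.4 with p52, 21.4 with RelB, 19.9 with p50 and 6.97 with RelA, with 763, 197, 444 and 119 reads. This region held the most RelB and RelA reads of the 32 regions, but it was also the widest, at 3482 bp.

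The region over the CCR7 TSS directly adjoined the intragenic one (chr17:35972415-35975670) and was weaker for each subunit called. Its fold enrichment was 16.3 with p52, 16.2 with p50 and 5.90 with RelB, the lowest RelB value of the 18 regions called for RelB. It held 268 p52, 320 p50, 67 RelB and 99 RelA reads. The summits did not coincide, since that of p50 lay 32 bp downstream of the TSS and those of p52 and RelB lay 1817 and 1826 bp downstream. The listed p50 summit was thus apart from those of p52 and RelB, which lay close together. For each subunit the study lists only its most significant peak in a region. Further peaks of any subunit in this wide region would therefore not be seen.

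Of the remaining 6 CCR7 regions, the one 21.7 kb downstream (chr17:35952287-35953559) reached 44.2 with p52, 25.7 with p50 and 12.3 with RelB. The one 37.3 kb upstream (chr17:36012528-36013418) reached 48.1 with p52, 45.7 with p50 and 6.32 with RelB. The region 34.1 kb downstream by its summits (chr17:35940659-35941861) differed in its composition, with RelB at 25.3 and p52 at 13.6 but no p50 call. RelB had 96 reads there beside 126 for p52 and 70 for p50, and the RelB value ranked 170th of 3984. The other 3 regions had a p52 enrichment between 10.4 and 14.6.

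CXCR4 had 10 regions on chromosome 2 spread over 300.1 kb. p52 was called in all of them, p50 in 6, RelB in 5 and RelA in 1. The region closest to the TSS lay inside the gene, 351 bp downstream (chr2:136590207-136591854), and had a fold enrichment of 18.5 with p50, 14.5 with p52 and 7.38 with RelB. It held 117 p50, 90 p52, 56 RelB and 36 RelA reads, and was 1 of 2 CXCR4 regions with more p50 than p52 reads (log2 ratio -0.38, interval -0.79 to 0.03).

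The strongest CXCR4 region was far from the gene, 163.1 kb upstream (chr2:136755307-136756682). Fold enrichment was 57.1 with p52, 34.04 with p50 and 15.9 with RelB, with 413, 233 and 104 reads. The 55 RelA reads were not called, although their density of 39.97 reads per kb was above the median of 38.4 over the regions called for RelA. This was the only one of the 28 regions without a RelA call to exceed that median.

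Downstream of CXCR4, 3 regions lay between 58.5 and 65.3 kb from the TSS, and the middle one was called for all 4 subunits (chr2:136530276-136531738). It had a fold enrichment of 29.9 with p52, 13.8 with RelB, 12.6 with p50 and 6.71 with RelA, with 257, 70, 92 and 45 reads. The summits lay within 25 bp. In all 3 of these regions p52 reads exceeded p50 reads, by 1.48, 1.48 and 2.36 on the log2 scale, and the last value (interval 1.52 to 3.30), from the region without a p50 call, was the highest of the 32 regions.

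A further group of 3 CXCR4 regions lay between 94.6 and 99.8 kb upstream and was called for p52 alone. Their p52 enrichment was 21.0, 10.7 and 9.57, with 88, 134 and 57 p52 reads and 29, 49 and 15 p50 reads. Together with 1 region each at CCR7 and CX3CL1 they made up the 5 regions with p52 as the only call. The last 2 CXCR4 regions, 208.8 and 233.2 kb upstream, were called for p50 and p52, with a p52 enrichment of 8.43 and 14.4 and a p50 enrichment of 12.6 and 17.3.

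CXCR5 on chromosome 11 had 3 regions, each called for p50 and p52. The strongest lay 41.6 kb upstream of the TSS (chr11:118217166-118218187), with a fold enrichment of 44.2 with p52, 23.2 with p50 and 8.10 with RelB. Its 783 p52 reads were the most of the 32 regions, beside 302 p50, 61 RelB and 39 RelA reads, and the 3 summits lay within 5 bp. The region over the TSS (chr11:118259026-118259913) had 21.0 with p52 and 17.1 with p50, with 170, 158, 21 and 20 reads of p52, p50, RelB and RelA. Its summits lay 441 bp (p52) and 435 bp (p50) upstream of the TSS in hg18. The RefSeq start of the CXCR5 window printed above need not be that TSS, so the summits were not placed against the window. At 11.6 kb downstream (chr11:118271361-118272018) the order turned, with 23.9 with p50 and 11.2 with p52 and with 105 p50 and 52 p52 reads (log2 ratio of p52 to p50 -1.01, interval -1.52 to -0.52), the lowest ratio of the 32 regions. The 2 p50 signal values of this region ranked far apart, in the top 19.2% and at 72.3% of the regions called for p50.

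**Figure D2:**
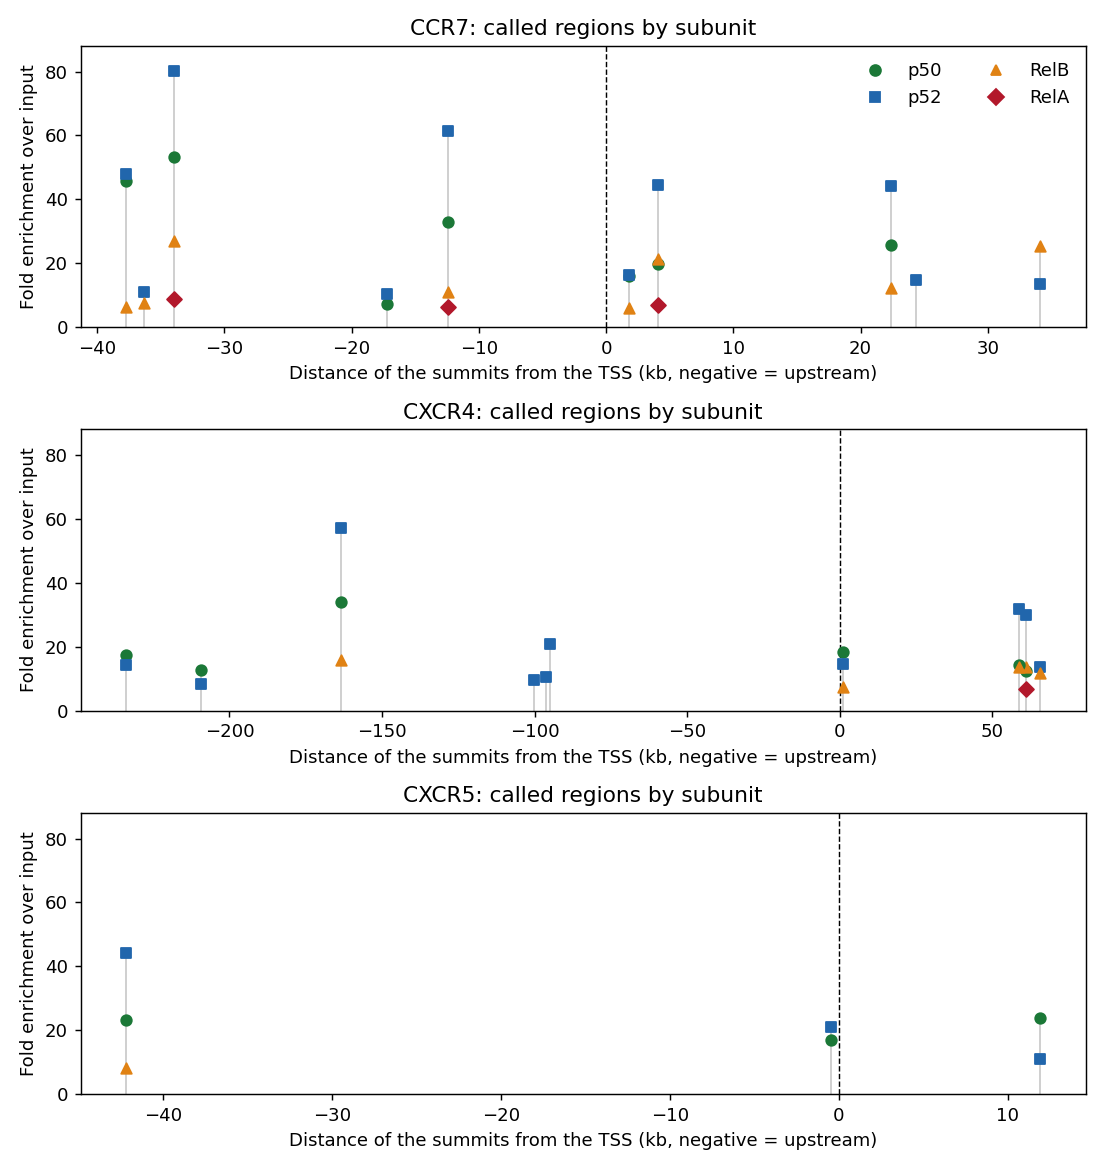
Fold enrichment over input (y axis) of each called region of CCR7, CXCR4 and CXCR5 by subunit (marker and colour), placed by the median distance of its summits from the TSS in kb (x axis, scaled for each gene; the dashed line is the TSS). The highest p52 values, 80.3 at CCR7, 57.1 at CXCR4 and 44.2 at CXCR5, all lie upstream and away from the TSS, and RelA appears at 3 CCR7 regions and 1 CXCR4 region.

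Over the 8 genes, p52 was called in 32 of 32 regions, beside 73.3% of all regions in the table. p50 was called in 24 regions (75%), close to the 73.8% over all regions, RelB in 18 (56.3%, over all regions 26.8%) and RelA in 4 (12.5%, over all regions 3.31%). Since every region of these genes was called for p52, the regions called for p52 are the nearer comparison, and of those 70.2% had a p50 call, 29.4% a RelB call and 3.66% a RelA call. The share of RelB among the 32 regions was thus higher than the background on either basis, whereas that of p50 was near it, and no test was run on these shares. The RelA count rests on 4 regions, 3 of them at CCR7.

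By combination, 11 regions were called for p50, p52 and RelB without RelA (17.1% of all regions), 9 for p50 and p52 only (31.8%), 8 for p52 without p50 (21.9%) and 0 for p50 without p52 (22.4%). All 4 subunits were called in 4 regions, beside 2.35% of all regions and 3.2% of the regions called for p52. Without the CCR7 regions, 10 of 22 were called for RelB and 1 of 22 for RelA. With a limit of 0.001 on the irreproducible discovery rate (IDR), which measures the disagreement between replicates, 26 regions kept a call. p52 was then called in 22 of 26 (over all regions at that limit 74.4%), p50 in 20 (74.5%) and RelB in 10 (19.1%). The CXCR4 region was the only one of the 26 with a RelA call (over all regions 2.13%). A p52 call in every region therefore holds for the deposited calls but not at this limit. The 5 ligand genes had 4 RelB calls in 9 regions, and the 3 receptor genes had 14 in 23.

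The median fold enrichment over the called regions of these genes was 19.3 for p50 (range 7.28 to 53.3, 24 regions), beside 16.8 over all regions called for p50. For p52 it was 16.002 (8.43 to 80.3, 32 regions) beside 17.2, for RelB 12.3 (5.90 to 26.9, 18 regions) beside 9.08, and for RelA 6.84 (6.24 to 8.81, 4 regions) beside 6.23. The p52 median thus lay below that of all called regions by fold enrichment, but the median p52 pileup, the number of fragments at the summit, was 59 beside 54 over all regions called for p52. The median p52 rank was the top 54.99% by fold enrichment and the top 44.6% by pileup. With an IDR below 0.001 the median p52 enrichment rose to 33.2 over 22 regions. Of the 32 p52 values 8 were in the top 10% of called regions and 15 in the top 50%, so the p52 values were spread over both ends of the range. In the top 10% were 3 of 24 p50 values, 3 of 18 RelB values and 0 of 4 RelA values.

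**Figure D3:**
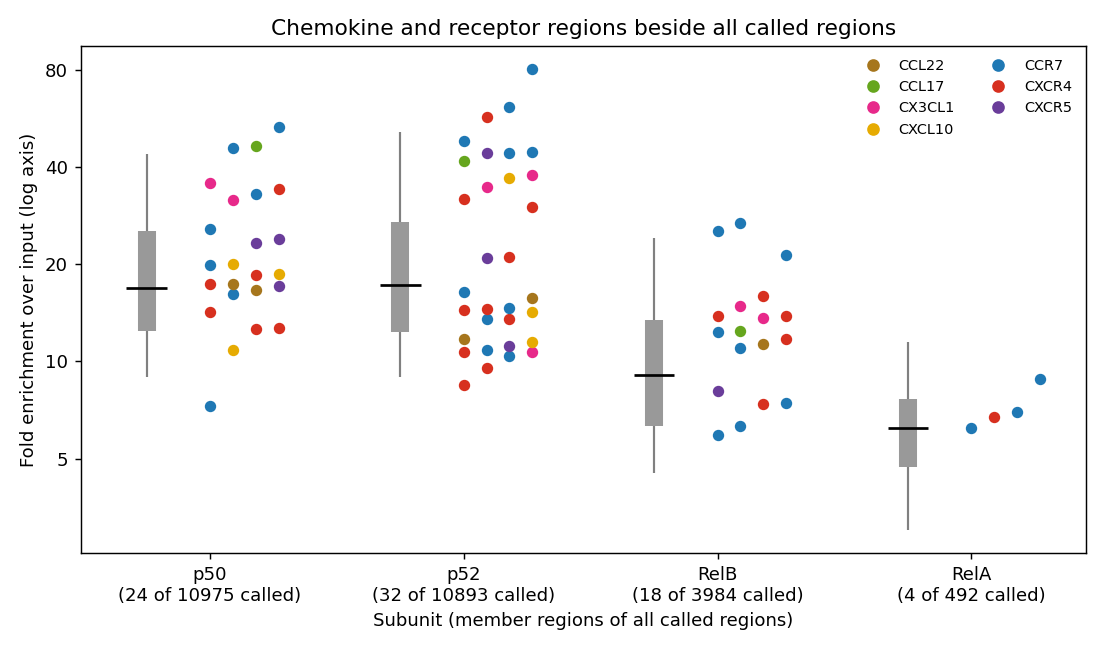
Fold enrichment over input (y axis, log axis) of the regions of the 7 genes, coloured by gene, beside all called regions of each subunit (x axis), for which the black line is the median, the thick grey bar spans the quartiles and the thin line the 5th to 95th percentile. The points of p52 range from 8.43 to 80.3 around an all-region median of 17.2, and the 4 RelA points lie between 6.24 and 8.81.

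The table gives 2 signal values per call, 1 from each replicate, without naming which replicate each column holds. For p52, whose replicates came from different antibodies, 9 of 32 regions were in the top 10% by both values, and 14 were in the top 50% by both. For p50 these numbers were 4 and 12 of 24, for RelB 3 and 6 of 18, and for RelA 0 and 1 of 4. Both p52 values placed the distal CXCR5 region in the top 2.1% and the CCR7 region 11.8 kb upstream in the top 1.7%. The strongest CCR7 region was in the top 6.76% by the first p52 value and in the top 0.689% by the second, and the strongest CXCR4 region in the top 5.91% and 2.3%. For RelA, the strongest CCR7 region was in the top 15.7% by the first value and at 81.5% by the second, and the CCR7 region 11.8 kb upstream was at 34.6% and 98%, whereas the intragenic CCR7 region (47.8% and 40.4%) and the CXCR4 region (58.7% and 56.3%) had closer ranks. RelB ranks also diverged in places, as at the strongest CXCR4 region, with 73.5% by the first value and 4.84% by the second. So did p50 ranks, as at the region over the CCR7 TSS (46.3% and 97.7%) and the CCL22 region 5490 bp upstream (92.7% and 37.7%). The rank of a region could thus differ between the columns for each of the 4 subunits.

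The balance of p52 and p50 reads differed among the genes. Whether the reads were counted before or after the libraries were reduced to a common size is not stated, so the level of a ratio also depends on library size, while its order among regions does not. The median log2 ratio of p52 to p50 reads over the 32 regions was 0.78, beside 0.10 over all regions and 0.42 over the regions called for p52, with a range from -1.01 to 2.36. It was 1.47 over the 10 CXCR4 regions and 0.79 over the 10 CCR7 regions, but 0.24 at CX3CL1, 0.11 at CXCR5, -0.03 at CXCL10, -0.13 at CCL17 and -0.40 at CCL22. Without CXCR4 the median of the rest was 0.18 and without CCR7 it was 0.31. By these medians, p52 reads stood out most at CXCR4 and CCR7. However, p50 was called in only 6 of the 10 CXCR4 and 7 of the 10 CCR7 regions. Regions without a p50 call are in the table only through other calls, so a high ratio there follows in part from that selection.

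Against the median of the regions called for p52, the interval lay above in 15 regions (28.1% of the regions called for p52) and below in 10 (32%). CXCR4 contributed 7 and CCR7 6 of the regions above, and 1 each came from CXCL10 and CXCR5. Among those of CXCR4 were the regions called for p52 alone. Against the median over all regions, 18 lay above (33.3% of all regions) and 6 below (35.6%). The regions at or next to the TSS of CCR7 and CXCR4 were on the low side of either median, opposite to most other regions of these genes.

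The log2 ratio of RelB to p52 reads had a median of -2.40 over the 32 regions, beside -2.15 over all regions, RelB having fewer reads than p52 in the whole table. The interval lay above the all-region median in 7 regions (23.9% of all regions) and below it in 9 (18.8%). The 7 regions were both CCL22 regions, the first CX3CL1 region, the 2 CCR7 and 1 CXCR4 regions called for p52 and RelB without p50, and the CXCR4 region next to the TSS. The p52 enrichment of these 7 regions ranged from 10.9 to 34.6, below that of the strongest regions.

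**Figure D4:**
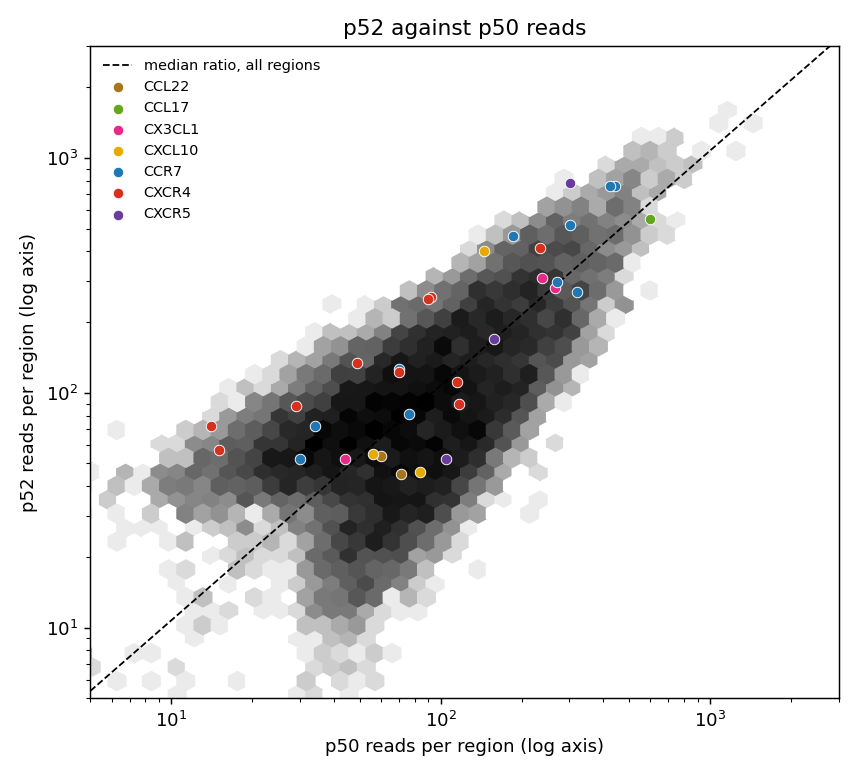
Reads per region for p52 (y axis) against p50 (x axis), both on log axes, for all regions (grey, darker where there are more) and for the regions of the 7 genes (coloured points), with a dashed line at the median ratio of all regions. CXCR4 and CCR7 lie mostly above the line, and CCL17 and CCL22 lie below it.

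By distance, 4 of the 32 regions (12.5%) were within 1 kb of a TSS, those at CXCL10, CCR7, CXCR4 and CXCR5, beside 20.1% of all regions. Within 10 kb there were 12 (37.5%, over all regions 37.3%) and beyond 50 kb 9 (28.1%, over all regions 31.5%), of which all belonged to CXCR4. In each of the 4 genes with a region within 1 kb except CXCL10, the region with the highest fold enrichment was not the one nearest to the TSS. Where 2 or more subunits were called, their summits lay within 250 bp of each other in 25 of 27 regions (92.6%, over all regions 93.02%), with a median span of 40 bp beside 17 bp over all such regions. The exceptions were the region over the CCR7 TSS, with a span of 1794 bp, and the CXCR4 region 208.8 kb upstream, with 328 bp.

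Of 71 other chemokine and receptor symbols, 1 could be paired with an identifier, namely CCL5 (ENSG00000161570), a chemokine that attracts T cells and monocytes, and the rest were not analysed here. CCL5 had 3 regions on chromosome 17. The one over its TSS (chr17:31231054-31231987) had a fold enrichment of 33.8 with p50, 28.8 with p52 and 17.9 with RelB, with 219, 196, 63 and 31 reads for p50, p52, RelB and RelA. The others lay 9204 and 11257 bp upstream and were called for p50 alone (14.8-fold) and for p50 and p52 (21.96- and 13.4-fold). No CCL5 region was called for RelA.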

How the data were processed

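Binding of the NF-κB subunits in L1236 cells was measured by ChIP-seq, with input DNA as background. The submitters' processing notes name CASAVA, Bowtie, SAMtools and hg18. The authors kept uniquely mapping reads, removed duplicates, reduced the libraries to a common size, called peaks with MACS on merged replicates and assessed the agreement of replicates by the irreproducible discovery rate (IDR). They deposited 1 table of union regions. The deposited read counts are whole numbers per region from merged replicates. Whether the authors counted them before or after the reduction to a common size is not given in the sources used here. The fold enrichment, as deposited, is a ratio of ChIP to input at the summit, and the deposited pileup is the coverage signal there. The deposited FDR of MACS is a q-value, and the IDR, which the authors give as a fraction, was below 0.01 for each subunit. The signal values are a score of each replicate that the authors used for the IDR, on a scale not given in the sources used here. Distances to the closest gene and TSS are the authors'. They are negative upstream.

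Regions were assigned where a member was the closest gene or TSS, and the TSS positions used for summit distances were derived from region bounds and deposited distances. CCL17, with 1 region, allowed none. The members and gene lists were chosen with earlier results of these data known. All 8 genes are named, and for each gene the region closest to its TSS, the one with the highest fold enrichment and each region with a RelA call are given in full. Of the other chemokine genes, those with a RelA call or the 3 with most regions were to be named. Symbols come from the list that defined the group, and that of CCL5 from the identifiers in a supplementary table. No statistical test was run, because counts and fold enrichments are from merged replicates, and no column of per-sample values was left out (0). Ratios carry exact Clopper-Pearson 95% intervals, which cover counting error only, as reads after PCR are not independent molecules. Interval, rank, motif and TSS steps were first tested on simulated data. Alternatives were other assignments, stricter IDR, FDR and fold enrichment, pileup or signal ranks, other scalings of reads, and a wider promoter window. The input reads per region were not used here. Calculations used Python, numpy, pandas, scipy and matplotlib (versions 3.11.15, 2.4.6, 2.3.3, 1.17.1 and 3.10.9).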

Additional observations from a re-analysis of the deposited data

How the results depend on the processing

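Limits that every call met were set aside, which left 85 recomputed summaries. Of these, 72 stayed within 1.5 times the reported count or within the interval of the reported median. That interval comes from the order of the values over regions, taken as independent, and not from read counts. For RelA, with 4 values, it was their whole range, so the median enrichment over fewer of them had to count as unchanged. No ratio of p52 to p50 reads with an interval excluding 0 changed sign. Limits of 0.01 on the IDR, 1e-05 on the FDR and 5 on the fold enrichment could not remove a call of these regions, all of which already met them, and so say nothing about stability. An IDR below 0.001, an alternative chosen after seeing the data, left 22 p52 calls, 20 p50 calls, 10 RelB calls, 1 RelA call and 1 region with all 4 subunits. It raised the median p52 enrichment from 16.002 to 33.2. That counted as unchanged, because the interval of the reported median was 13.6 to 37.1. Without the CXCR4 regions, the median log2 ratio of p52 to p50 reads fell from 0.78 to 0.18. This fall also counted as unchanged, so the criterion allows large shifts. Leaving out the CCR7 regions, also chosen after seeing the data, gave 10 RelB calls, 1 RelA call and 1 region with all 4 subunits. The median rank of the called regions moved for RelB from the top 29.9% by fold enrichment to 58.5% by the first signal value, and for RelA from 39.5% to 49.7% by pileup and 68.9% by the second signal value. The cause was not tested. The median log2 ratio of RelB to p52 reads was -0.25 relative to the median over all regions and -0.46 after scaling by summed reads, because RelB had fewer reads in all. Within 5 kb of the TSS there were 7 regions (29.4% of all regions) in place of 4 within 1 kb, and the κB consensus was in 3 promoter windows where the looser motif was in 6. No paired analysis was possible because the counts and fold enrichments of each subunit are from merged replicates, and the signal values are not assigned to a numbered replicate. A missing call did not always mean few reads. Of the 28 regions without a RelA call, 13 had a read density at or above the 5th percentile of the regions called for RelA. For RelB it was 6 of the 14 regions without a call, against the regions called for RelB. The share of all uncalled regions that pass these limits was not computed. Input reads per region were not compared, so these densities show neither binding nor a lack of it.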
